A study of Homo sapiens with 2 samples.

Results

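The RNAs described here are the small nucleolar RNAs (snoRNAs) and the small Cajal body RNAs (scaRNAs) that were measured in 2 RNA immunoprecipitates of T47D, a luminal breast cancer cell line. They were chosen by gene name: names beginning with SNORA or SNORD and a number, with snoU, or with SCARNA. This gave 35 of the 18781 genes of the table. By name, 13 were H/ACA snoRNAs (SNORA), 13 were C/D snoRNAs (12 SNORD genes and snoU13) and 9 were scaRNAs. The identifier of snoU13 now carries the symbol of a long non-coding RNA, LINC01998, so it counts as C/D by name only. Lysate of wild-type, otherwise untreated T47D cells was incubated with beads that carried either an antibody against IMP1, an RNA-binding protein of mRNA localization and translation, or normal IgG. The study made these precipitates to find long non-coding RNAs bound by IMP1. Each antibody gave 1 library, so there is no replicate check, no error and no test for any value below, and no library of the unprecipitated lysate was analysed here.

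snoRNAs are short RNAs that guide the modification of other RNAs in the nucleolus. C/D snoRNAs carry fibrillarin and guide 2′-O-methylation, H/ACA snoRNAs carry dyskerin and guide pseudouridylation, and scaRNAs do the same work on spliceosomal RNAs in Cajal bodies. Some, such as the U3 RNA, help to cleave the ribosomal RNA precursor and do not guide a modification. In human cells most are cut out of the introns of a host gene, and many hosts encode ribosomal proteins, translation factors or non-coding host transcripts (SNHG).

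The levels are FPKM, fragment counts scaled for transcript length and for the mapped fragments of the library, as the authors deposited them. The difference between the libraries is given as the log2 ratio of IMP1 over IgG after 0.1 FPKM was added to both. The members lie in loci that the table gives on hg19, and 29 of the 35 shared their locus entry with at least 1 other gene, so that the position given is that of the whole locus and not of the small RNA. RefSeq gene positions (assembly GRCh38.p14) placed 28 of the 35 inside a longer gene, and for 25 of them that host gene was in the same locus of the table. These 25 members had 24 host genes, with 4 members inside ribosomal protein genes and 4 inside genes of the EIF4 translation initiation factors, overlapping read-through genes included.

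The start sites of the hosts are shown because they are a sequence feature that the choice by name did not use. Many mRNAs of the translation machinery begin with a C followed by a run of pyrimidines, the 5′ terminal oligopyrimidine start, and snoRNA hosts are known for this start. A RefSeq window of 15 bases before and 15 bases from the start was found for 20 of the 24 host genes. A C at the start itself followed by pyrimidines, to a run of at least 5 bases, was present for 8 of these 20 hosts (40.0%), against 1404 of 27305 genes with a window (5.14%). The 8 windows follow, 5′ to 3′ on the strand of the gene and with GRCh38.p14 positions, with the pyrimidine run in capitals.
EIF4A2, chr3:186783562-186783591, plus strand: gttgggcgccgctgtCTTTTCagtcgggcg
IPO7, chr11:9384637-9384666, plus strand: ttggcgcttctctttCCTTTCgcgccggtt
MATR3, chr5:139274086-139274115, plus strand: ctcggctcccggctgCCCTTTCCCCTCCgg
NCAPD2, chr12:6494087-6494116, plus strand: gcacgcgtgttttttCCTTTTCatttcagc
PHB2, chr12:6970650-6970679, minus strand: cttccgctgccctttCTTTCgccagcctta
RCC1, chr1:28506028-28506057, plus strand: tcgcgttttctctctCCTTTTTggagacag
SNX5, chr20:17968780-17968809, minus strand: gcaccgaaacgcggtCTTTCTCTagacgcg
TAF1D, chr11:93741481-93741510, minus strand: acggaaatagccaacCCTTTTCTTCCgcac

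The longest run, of 13 bases, was that of MATR3. These 8 genes enclose 9 of the members, namely SNORA63 and SNORA81 (both in EIF4A2), SNORA23, SNORA74, SCARNA10, SCARNA12, SNORA73B, SNORD17 and SNORA40. Their levels ran from 0 to 44.4 FPKM in the IMP1 precipitate and from 0 to 278 FPKM in the IgG precipitate, so the shared start did not go with a shared level. A match of letters in a window is a description of the gene, and a window without a match says only that these letters do not stand at that annotated start.

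By their summed level, the members were lower in the IMP1 precipitate by about as much as all genes together (log2 ratio -1.93 against -1.88, as deposited). Under 3 rescalings of the IMP1 values the members' ratio was -1.31 to -0.67, and none of these rescalings used the sum over all genes. In sum they had 539 FPKM in the IMP1 precipitate and 2049 FPKM in the IgG precipitate, 3.80 times as much. The sum over all genes of the table was itself 3.67 times higher in the IgG precipitate, and the members took 0.152% of it in the IMP1 precipitate and 0.158% in the IgG precipitate. A few members carried the sums. SCARNA7, SNORD3A and SNORD116-1 made up 61.8% of the members' sum in the IMP1 precipitate, while SCARNA2, SNORD3A and SNORA73B made up 55.5% in the IgG precipitate. SCARNA7 alone was 37.7% of the IMP1 sum, and without it the IgG sum was 5.59 times the IMP1 sum. The same ratio was 3.07 without SCARNA2 and 3.67 without SNORD3A.

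Of the 35 members, 15 were at least 2-fold lower in the IMP1 precipitate (42.9%), against 29.9% of all genes. Another 8 were at least 2-fold higher (22.9%), against 39.9% of all genes. The median log2 ratio was -0.41 over the members and 0.40 over all genes. These counts mix members that were measured in both libraries with members listed at 0 in one of them. Above 0 in both were 15 members (42.9%, against 53.5% of all genes), 8 were above 0 in the IMP1 precipitate only (22.9%, against 38.3%), 7 in the IgG precipitate only (20.0%, against 6.58%) and 5 in neither (14.3%, against 1.66%). Among the 15 above 0 in both, 12 were lower (80.0%, against 66.7% of all genes above 0 in both) and 3 were higher in the IMP1 precipitate. At least 2-fold lower were 8 of them, against 44.6% of the 10047 genes above 0 in both, and 1 was at least 2-fold higher, against 16.9%. Their median log2 ratio was -1.26, where the 10047 genes had -0.77. The 3 rescalings of the IMP1 precipitate that were tried raised it by 0.61 to 1.26 on the log2 scale, and 11 of the 15 members kept their direction under each of them. The other 4, SCARNA10, SNORA53, SNORD3B-2 and SNORD3D, were lower in the IMP1 precipitate as deposited and higher under at least 1 rescaling. In the plot of the levels, the members of each class run from the highest to the lowest.

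**Figure D1:**
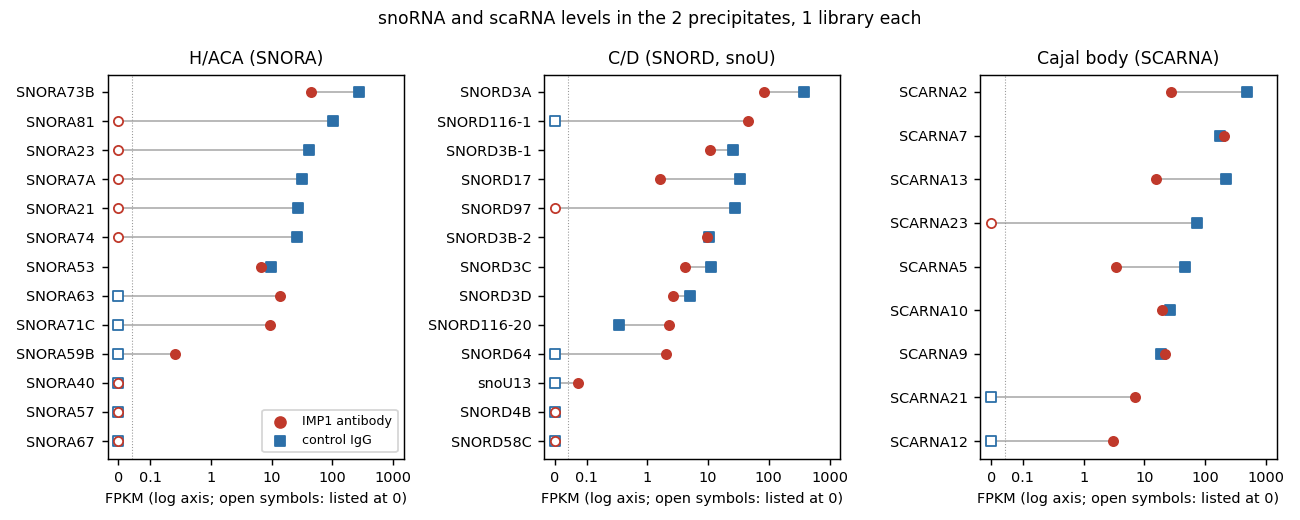
FPKM (log axis) of each H/ACA snoRNA (left), C/D snoRNA (middle) and scaRNA (right) in the IMP1 antibody precipitate (red circles) and the control IgG precipitate (blue squares), 1 library each, with open symbols for values listed at 0 and a grey line joining the 2 values of a gene. Of the 35 members, 15 were above 0 in both libraries, and SCARNA7, at 203 FPKM, was the highest member in the IMP1 precipitate.

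The scaRNAs held the largest part of the members' FPKM in both libraries, with a sum of 302 FPKM in the IMP1 precipitate and 1040 FPKM in the IgG precipitate. They were also the class measured most often, since 6 of the 9 were above 0 in both libraries and none was at 0 in both. The 9 scaRNAs did not move together. SCARNA2, SCARNA5 and SCARNA13 were far lower in the IMP1 precipitate, while SCARNA7, SCARNA9 and SCARNA10 were within 1.5-fold as deposited.

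SCARNA2, which has its own locus (ENSG00000270066, chr1:109642815-109643241) and is not cut from an intron, had 27.4 FPKM in the IMP1 precipitate and 480 FPKM in the IgG precipitate, 17.5 times as much. It was the highest member of the IgG precipitate, and its identifier is one of 6 (with snoU13, SNORD116-20, SNORD3D, SNORA67 and SNORD64) that carry no snoRNA or scaRNA symbol now. SCARNA13, inside the non-coding host SNHG10, had 15.7 FPKM in the IMP1 precipitate and 222 FPKM in the IgG precipitate, 14.1 times as much. SCARNA5, inside the autophagy gene ATG16L1, had 3.45 FPKM against 46.6 FPKM, 13.5 times as much in the IgG precipitate. The log2 ratios of these 3 scaRNAs lay between -4.13 and -3.72, and they stayed at or below -2.49 under all 3 rescalings.

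SCARNA7, inside the nuclear import receptor gene KPNA4, had 203 FPKM in the IMP1 precipitate and 174 FPKM in the IgG precipitate, a ratio of 1.17. SCARNA9, inside KIAA1731 (now CEP295), had 22.2 FPKM against 18.4 FPKM, a ratio of 1.21. SCARNA10, inside the condensin subunit gene NCAPD2, had 19.9 FPKM against 26.3 FPKM, 1.33 times as much in the IgG precipitate. No spread between replicates is known against which to set such differences, and all 3 moved with rescaling. On the log2 scale, SCARNA7 went from 0.23 as deposited to between 0.84 and 1.48, and SCARNA9 from 0.27 to between 0.88 and 1.52, so that both passed 2-fold higher under 2 of the 3 rescalings. SCARNA10 turned, from -0.41 to between 0.20 and 0.85.

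The remaining scaRNAs were above 0 in a single library. SCARNA12, inside the prohibitin gene PHB2, had 2.998 FPKM in the IMP1 precipitate and was listed at 0 in the IgG precipitate. SCARNA21, inside the chromatin remodeller gene CHD3, had 6.98 FPKM in the IMP1 precipitate and was listed at 0 in the IgG precipitate. SCARNA23, inside the DNA polymerase gene POLA1, was listed at 0 in the IMP1 precipitate and had 72.5 FPKM in the IgG precipitate. Their values thus went in both directions, but a 0 with IgG says less, since that library had the coarser scale, as described below.

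Among the C/D snoRNAs, the U3 genes (SNORD3) stood out as 5 genes that all lay alone in their loci, on chromosome 17, and were all above 0 in both libraries. U3 is the abundant C/D RNA that base pairs with the ribosomal RNA precursor in the small subunit processome. SNORD3A (ENSG00000263934, chr17:19091329-19092027) had 84.1 FPKM in the IMP1 precipitate and 379 FPKM in the IgG precipitate, 4.51 times as much. SNORD3B-1 had 10.6 FPKM against 25.5 FPKM, 2.40 times as much in the IgG precipitate. SNORD3C had 4.22 FPKM against 11.0 FPKM, 2.62 times as much in the IgG precipitate. The other two were closer, with SNORD3D at 2.61 FPKM against 4.99 FPKM and SNORD3B-2 at 9.45 FPKM against 10.5 FPKM.

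All 5 U3 genes were lower in the IMP1 precipitate as deposited, with a median log2 ratio of -1.26, but SNORD3B-2 and SNORD3D turned higher under at least 1 rescaling and SNORD3B-1 came to -0.01 under the one that used long nuclear genes. In sum, the U3 genes had 111 FPKM in the IMP1 precipitate and 431 FPKM in the IgG precipitate, 3.89 times as much. The U3 genes are near-identical copies, so that reads can be split between them in a way that the table does not show, and their sum is firmer than the value of any one gene. A further copy, named U3 in the table and lying on chromosome 14, was not matched by the names and had 2.79 FPKM in the IMP1 precipitate and 0 in the IgG precipitate.

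The C/D snoRNAs other than U3 had a sum of 51.7 FPKM in the IMP1 precipitate and 62.1 FPKM in the IgG precipitate, 1.20 times as much. Their median log2 ratio of 0.39 lay between that of snoU13 and that of members listed at 0 in both libraries. It therefore gives no direction. Of these genes, 2 were above 0 in both libraries, 1 higher and 1 lower in the IMP1 precipitate, with a median of -0.95. SNORD116-1 made up most of the IMP1 sum, and without it the sums were 5.99 FPKM and 62.1 FPKM, 10.4 times as much in the IgG precipitate. SNORD17, inside the sorting nexin gene SNX5, had 1.60 FPKM in the IMP1 precipitate and 33.9 FPKM in the IgG precipitate. That 21.2-fold difference gave the lowest log2 ratio (-4.32) of any member above 0 in both libraries. SNORD97, inside the translation factor gene EIF4G2, was listed at 0 in the IMP1 precipitate and had 27.9 FPKM in the IgG precipitate. snoU13 had 0.0716 FPKM in the IMP1 precipitate and was listed at 0 in the IgG precipitate. SNORD4B, inside RPL23A, and SNORD58C, inside RPL17-C18orf32, were listed at 0 in both libraries.

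The 3 C/D members of the imprinted Prader-Willi region (SNORD116-1, SNORD116-20 and SNORD64, all in the locus chr15:25068794-25492435) had the larger value in the IMP1 precipitate. SNORD116-1, of the SNORD116 cluster whose loss is tied to Prader-Willi syndrome, had 45.7 FPKM in the IMP1 precipitate and was listed at 0 in the IgG precipitate. SNORD116-20 had 2.29 FPKM against 0.348 FPKM, 6.59 times as much in the IMP1 precipitate, and as deposited it was the 1 member above 0 in both that was at least 2-fold higher there. SNORD64 had 2.02 FPKM in the IMP1 precipitate and was listed at 0 in the IgG precipitate. SNRPN, the spliceosomal protein gene of the same locus, had 2.71 FPKM against 0.286 FPKM, while PWAR6, a non-coding gene of that locus, had 0.211 FPKM against 1.63 FPKM. The 3 share 1 locus entry and are not independent of each other, and for SNORD116-20 and SNORD64 the identifier no longer carries a snoRNA symbol.

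The H/ACA snoRNAs were the class measured least often. Of the 13, 2 were above 0 in both libraries, 3 in the IMP1 precipitate only, 5 in the IgG precipitate only and 3 in neither. In sum they had 74.2 FPKM in the IMP1 precipitate and 515 FPKM in the IgG precipitate, 6.95 times as much. The same ratio was 3.03 for the C/D snoRNAs and 3.44 for the scaRNAs. SNORA73B made up more of the H/ACA sum than all other members of its class together, in each library. The class medians of the log2 ratio were close, at -0.53 for the H/ACA snoRNAs, -0.15 for the C/D snoRNAs and -0.41 for the scaRNAs, and those medians moved with how values of 0 were treated. No difference between the classes was tested.

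SNORA73B, which is among the most abundant H/ACA RNAs and lies inside the overlapping genes SNHG3 and RCC1 (locus chr1:28832455-28865812), had 44.4 FPKM in the IMP1 precipitate and 278 FPKM in the IgG precipitate. That was 6.26 times as much in the IgG precipitate, and it kept this direction under the 3 rescalings. SNORA53, inside the mitochondrial phosphate carrier gene SLC25A3, had 6.67 FPKM against 9.70 FPKM, a log2 ratio of -0.53 that turned to between 0.07 and 0.71 under rescaling.

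The 5 H/ACA snoRNAs found in the IgG precipitate only lie in genes that were themselves measured in both libraries. SNORA81, inside the translation initiation factor gene EIF4A2, had 103 FPKM in the IgG precipitate. SNORA23 in IPO7 had 40.8 FPKM, SNORA7A in RPL32 had 31.1 FPKM, SNORA21 in RPL23 had 27.0 FPKM and SNORA74 in MATR3 had 25.7 FPKM there. All 5 were listed at 0 in the IMP1 precipitate. Found in the IMP1 precipitate only were SNORA63 in EIF4A2, with 13.6 FPKM, SNORA71C in SNHG17, with 9.27 FPKM, and SNORA59B in the transporter gene SLC47A1, with 0.252 FPKM. SNORA40, SNORA57 and SNORA67 were listed at 0 in both libraries.

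How much a value of 0 says depends on what 1 fragment is worth in each library, and the IgG precipitate had the coarser scale. In the 7 U1 spliceosomal RNA genes of identical length (164 bases), all values were whole multiples of 3.97 FPKM in the IMP1 precipitate and of 12.6 FPKM in the IgG precipitate, within 0.05 of a step. That step was 3.16 times larger in the IgG precipitate. Among genes that were alone in a locus of at least 100 and under 200 bases, the smallest value above 0 was 2.93 FPKM in the IMP1 precipitate and 11.95 FPKM in the IgG precipitate. Numbers of reads were not analysed here, so no interval is given for any value.

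The 7 members found in the IgG precipitate only had 25.7 to 103 FPKM. Among genes alone in a locus of at least 100 and under 200 bases, every IgG value above 0 lay above the smallest IMP1 value. The height of these 7 members is therefore given as a description. Of the 8 members found in the IMP1 precipitate only, SNORA63 and SNORD116-1 were above the smallest IgG value of these short loci and 6 were below it. The smallest IgG value was lower for longer loci, at 1.70 FPKM for loci of 200 to under 300 bases and 1.18 FPKM for 300 to under 400 bases, and SNORA53 (9.70 FPKM) and SNORD116-20 (0.348 FPKM) had lower IgG values than 11.95 FPKM. A length for each member was not available, and no smallest value was taken for loci under 100 bases. Whether an equal level of any of the 8 would have been detectable with IgG is therefore not known. SNORA63, at 13.6 FPKM, was close to the 11.95 FPKM.

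**Figure D2:**
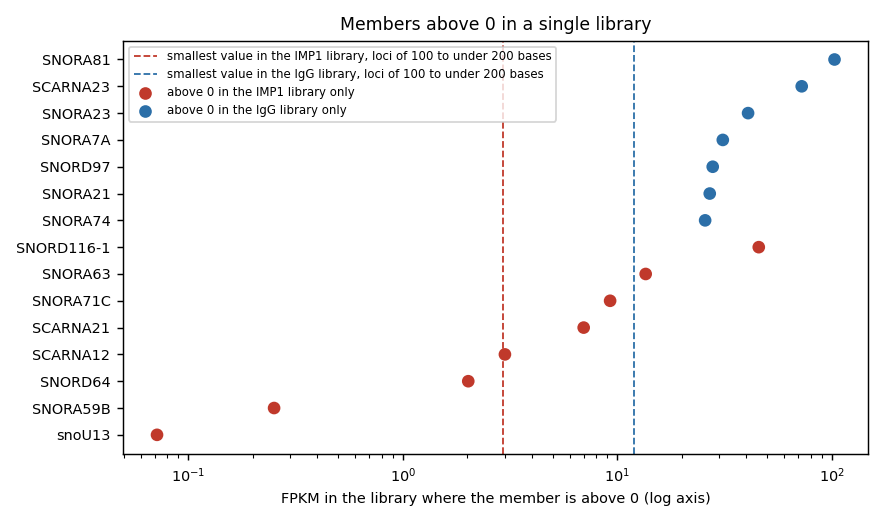
FPKM (log axis) of the 15 members above 0 in a single library, in that library: red for the IMP1 precipitate (n = 8) and blue for the IgG precipitate (n = 7), with dashed lines at the smallest value above 0 of genes alone in a locus of at least 100 and under 200 bases (2.93 FPKM in the IMP1 precipitate, red, and 11.95 FPKM in the IgG precipitate, blue). Of the 8 red points 6 lie to the left of the blue line, and the blue points lie to the right of it.

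The host genes were measured more evenly than the small RNAs inside them. Of the 24 host genes, 20 were above 0 in both libraries, against 53.5% of all genes. Of these 20, 18 were lower in the IMP1 precipitate as deposited, against 66.7% of all genes above 0 in both. The median log2 ratio over the 24 was -0.74, which the rescalings by 0.79 and 1.26 on the log2 scale bring above 0. For 10 of the members listed at 0 in the IMP1 precipitate the host was above 0 in both libraries. RPL23 had 397 FPKM in the IMP1 precipitate and 761 FPKM in the IgG precipitate, and RPL32 had 464 FPKM and 622 FPKM, while SNORA21 and SNORA7A inside them were at 0 in the IMP1 precipitate. A high level of the host did not bring a value for its small RNA, since SNORD4B was at 0 in both libraries in RPL23A, which had 489 FPKM and 606 FPKM.

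Over the 25 members with a host, the log2 ratio of the member minus that of its host had a median of 0.00 and ran from -12.28 to 9.18, with 12 members lower and 12 higher than their host. The middle value is that of SNORA67, for which member and longest host are both listed at 0 in both libraries. SNORA40, SNORA57, SNORD4B and SNORD58C were also listed at 0 in both. They count as higher only because the log2 ratio of their host was below 0, so the even split is not a measured balance. Most of this range came from members listed at 0 in one library, for which the ratio depends on the added 0.1 FPKM. For the 8 above 0 in both libraries, 4 were lower and 4 were higher than the longest host, with a median difference of -0.83, which became 0.24 with the shortest host. SCARNA5 was nearest to its host, since ATG16L1 had 0.797 FPKM in the IMP1 precipitate and 12.3 FPKM in the IgG precipitate, and the log2 ratios differed by 0.06. SNORD17 minus its host SNX5 came to -3.66 on the log2 scale, where the host had 13.05 FPKM against 20.6 FPKM.

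SNORA73B showed that the choice of host can turn the direction. Its log2 ratio of -2.64 was below that of RCC1 (-0.39), the longer of the hosts, and above that of SNHG3 (-4.93), the shorter. SNHG3, a non-coding gene whose known products are its snoRNAs, had 19.7 FPKM in the IMP1 precipitate and 604 FPKM in the IgG precipitate. RCC1, the nucleotide exchange factor of Ran, had 4.21 FPKM and 5.56 FPKM.

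A single host could also hold members that were above 0 in different libraries. EIF4A2 (locus chr3:186499569-186524847) had 67.2 FPKM in the IMP1 precipitate and 286 FPKM in the IgG precipitate. Of the H/ACA snoRNAs in its introns, SNORA63 had 13.6 FPKM and 0, and SNORA81 had 0 and 103 FPKM. The value of SNORA63 was close to the smallest IgG value of short loci (11.95 FPKM), so its 0 with IgG says little. The strand used in counting and the handling of reads that fit both a small RNA and its host are not given in the sources used here, so that fragments of the mature small RNA and of the host's unspliced transcript cannot be told apart.

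**Figure D3:**
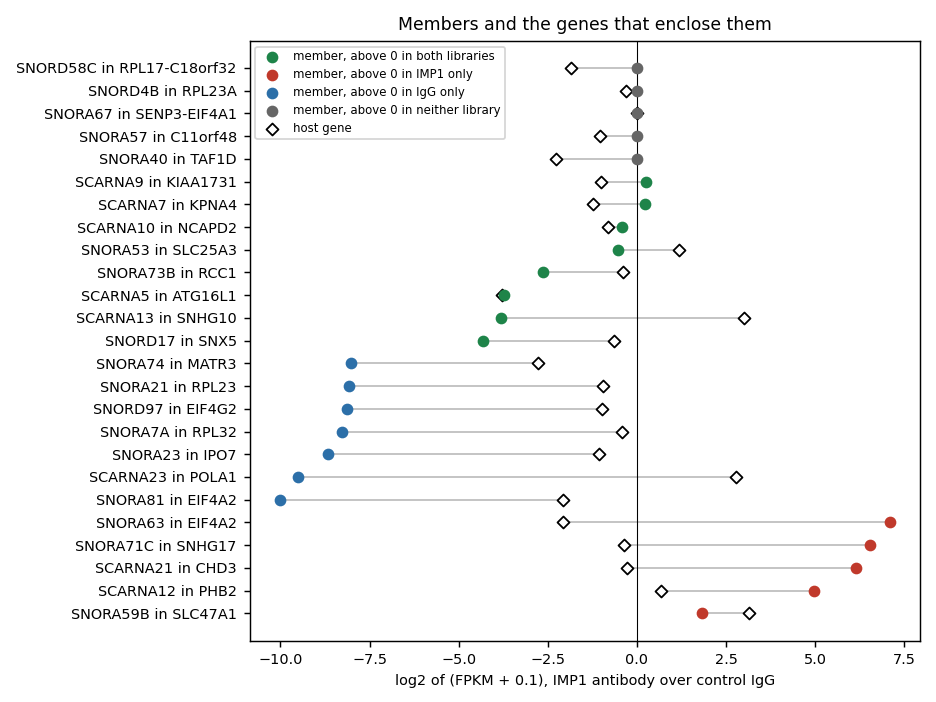
Log2 ratio of IMP1 over IgG, after adding 0.1 FPKM, of the 25 members with a host gene in the table (filled circles, coloured by the libraries in which the member was above 0) and of the longest host gene (open diamonds), with a grey line joining each pair. The hosts lie between -3.78 (ATG16L1) and 3.16 (SLC47A1). Members above 0 in 1 library lie farther out, for example SNORA63 and SNORA81, which have the same host, except SNORA59B at 1.81.

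The members are set here beside the U, 7SL and 7SK genes, many of them low copies of an abundant RNA, and beside the remaining genes with a short locus. That last group was chosen by locus length alone, not by kind of RNA, and includes mitochondrial genes. The 30 members above 0 in at least 1 library had a median log2 ratio of -1.08, which is the basis to compare, since none of the other groups held a gene at 0 in both libraries. By class, the medians on this basis were -5.33 (H/ACA), -0.91 (C/D) and -0.41 (scaRNAs). The H/ACA value depends on the added 0.1 FPKM. The U spliceosomal RNA genes and their copies had a median log2 ratio of -7.42 (n = 42), with 39 of them at least 2-fold lower with IMP1, and their sum was 56.4 times higher in the IgG precipitate. The signal recognition particle RNA genes (7SL, n = 49) had a median of -3.95 and a sum 11.9 times higher there. The 7SK genes (n = 52) had a median of -1.23 and a sum 2.85 times higher, close to the members by the median and below their 3.80 by the sum. The genes with a locus under 400 bases outside these groups had a median of 2.54 (n = 100), with 57 of them above 0 with IMP1 only, and a sum 2.80 times higher in the IgG precipitate, so that their median and their sum lay on opposite sides. No test of these differences was possible with 1 library for each antibody, and how much depth contributes to them was not tested.

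**Figure D4:**
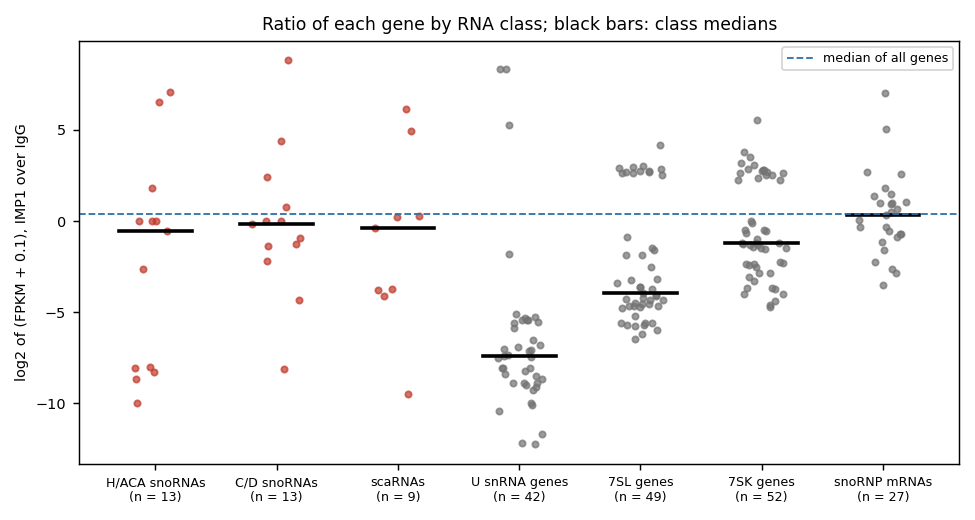
Log2 ratio of IMP1 over IgG, after adding 0.1 FPKM, for each gene (points, spread sideways at random) of the 3 classes of members (red) and of 4 other gene groups (grey), with black bars at the medians and a dashed line at the median of all genes (0.40). The medians of the 3 member classes, members at 0 in both libraries included, lie between -0.53 and -0.15, while that of the U spliceosomal RNA genes is -7.42. Without members at 0 in both, the class medians are -5.33 (H/ACA), -0.91 (C/D) and -0.41 (scaRNAs).

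The mRNAs of the proteins that bind, assemble or transport these RNAs gave no common direction. Of a list of 29 genes, 28 were in the table, and 27 of these encode proteins. Of the 27, 8 had at least 2-fold more in the IMP1 precipitate (29.6%, against 39.9% of all genes). Another 6 had at least 2-fold less (22.2%, against 29.9% of all genes). The median log2 ratio of the 27 was 0.33 (all genes 0.40). Of the C/D core, FBL, the methyltransferase fibrillarin, had 26.6 FPKM in the IMP1 precipitate and 12.995 FPKM in the IgG precipitate. NHP2L1, the protein that first binds the C/D motif, had 18.9 FPKM against 9.60 FPKM, while NOP56 had 10.7 FPKM against 17.4 FPKM and NOP58 had 6.21 FPKM against 11.4 FPKM.

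Of the H/ACA core, DKC1, the pseudouridine synthase dyskerin, had 3.22 FPKM in the IMP1 precipitate and was listed at 0 in the IgG precipitate. GAR1 had 2.14 FPKM against 10.4 FPKM. NHP2 had 28.4 FPKM against 36.1 FPKM, and NOP10 had 28.2 FPKM against 35.0 FPKM. As deposited, the core mRNAs of both classes thus held genes on either side, but the log2 ratios of NOP56 (-0.69), NOP58 (-0.86), NHP2 (-0.34) and NOP10 (-0.31) are smaller than the largest rescaling (1.26) and turn with it.

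Among the 13 assembly and transport factors, 4 had at least 2-fold more and 4 at least 2-fold less in the IMP1 precipitate. Each was 30.8% of them, against 39.9% and 29.9% of all genes. RUVBL2, an ATPase of the assembly machinery, had 13.2 FPKM in the IMP1 precipitate and was listed at 0 in the IgG precipitate. RPAP3, a partner of the same machinery, had 0.642 FPKM against 8.38 FPKM. XPO1, the export receptor that takes part in U3 transport, had 14.0 FPKM against 42.1 FPKM, and PHAX, its RNA adaptor, had 7.23 FPKM against 2.74 FPKM.

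Of the Cajal body and telomerase genes, WRAP53, whose protein brings scaRNAs to Cajal bodies, had 1.32 FPKM in the IMP1 precipitate and 0.136 FPKM in the IgG precipitate. COIL, the coilin scaffold of the bodies, had 3.60 FPKM against 1.77 FPKM. TERC, the telomerase RNA, which carries an H/ACA domain like that of some scaRNAs, had 26.3 FPKM against 105 FPKM. Its log2 ratio was -1.99, while the H/ACA snoRNAs and the scaRNAs lay on both sides of 0.

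**Figure D5:**
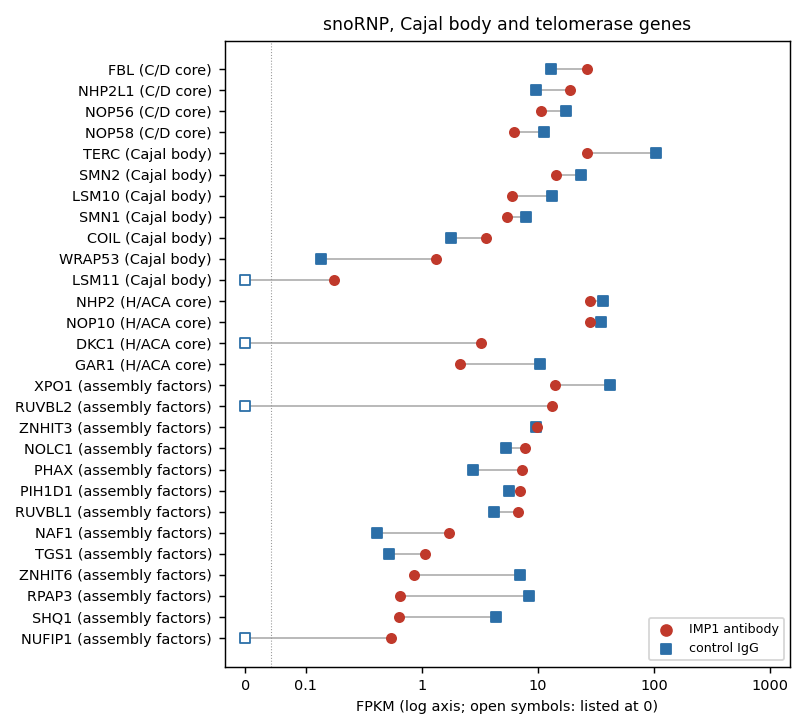
FPKM (log axis) of the 28 measured genes of the snoRNP list in the IMP1 antibody precipitate (red circles) and the control IgG precipitate (blue squares), 1 library each, with the group of each gene in brackets and open symbols for values listed at 0. FBL and NHP2L1 were higher in the IMP1 precipitate and NOP56 and NOP58 in the IgG precipitate as deposited (the latter 2 turn with the largest rescaling), and TERC was highest of all in the IgG precipitate, at 105 FPKM.

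Both libraries held the markers of the labelled cell line, and the IgG precipitate also held markers of other cell types. All 12 luminal breast markers were at 1 FPKM or more in both libraries, with a summed level of 1279 FPKM in the IMP1 precipitate and 610 FPKM in the IgG precipitate. Of 9 mesenchymal markers, 1 reached 1 FPKM in the IMP1 precipitate and 8 in the IgG precipitate, with sums of 2.78 FPKM and 192 FPKM, and 4 were at 0 in the IMP1 precipitate and none in the IgG precipitate. Of 6 blood cell markers, 2 were in the table, with sums of 6.42 FPKM and 322 FPKM. The part of this difference in the levels of the snoRNAs and scaRNAs was not tested.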

How the data were processed

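A company sequenced the RNA brought down from T47D lysate by anti-IMP1 or by normal IgG, as 1 library each. The authors' table gives deposited FPKM for each gene, on hg19 per the submitters' processing notes. The aligner, the software behind the values, the annotation and the use of strand are not given in the sources used here. The deposited table also holds the authors' fold change and p-value, which were not used.

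Exact zeros are written as 1e-05 in the table, and smaller values (346 genes in the IMP1 library, 228 in the IgG library and 5 of the members in at least 1 library) were also set to 0. The table gives the start of a locus counted from 0, and 1 was added. From the FPKM values, log2 of (IMP1 + 0.1) over (IgG + 0.1) was computed for 18781 genes with Python 3.11.15, numpy 2.4.6 and pandas 2.3.3, and genes past 2-fold were counted. The counting was tested on simulated data that held no values of 0, so that test does not cover members listed at 0 in 1 library. With 1 library for each condition, no test was run. Overlapping genes share 1 locus entry in the table, so hosts were found through RefSeq gene positions of GRCh38.p14 by symbol and kept where the host was in the same locus of the table, in place of the overlap of loci that had been planned. Start-site windows come from RefSeq. The depth in reads is not known, and the steps of identical U1 genes show only its relative size.

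The members and all gene lists were chosen with earlier results of these data known. The genes named are the 5 highest of each class in each library, the 5 with the largest and the 5 with the smallest ratio among those at 1 FPKM or more in both, the 5 highest found in a single library, all scaRNAs, the U3 and SNORA73 genes, members sharing a locus, and the hosts. The remaining members were added so that all 35 are accounted for. Alternatives were other added constants (1 and 0.01 FPKM), a filter at 0.5 FPKM, genes above 0 in both, a 4-fold threshold, 3 rescalings (median gene, sum without the 50 highest genes, and long nuclear genes with loci of at least 1000 bases), and the shortest in place of the longest host. Averaging U3 and SNORD116 genes, leaving out 6 members whose identifier has no snoRNA or scaRNA symbol now, and leaving out members at 0 in both were chosen after seeing the data.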

Additional observations from a re-analysis of the deposited data

How the results depend on the processing

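The counts of members at least 2-fold lower (15) and higher (8) ran from 12 to 15 and from 6 to 12 under the alternatives that kept members at 0 in one library, and fell to 8 and 1 for the members above 0 in both, by construction. Under the rescalings 34.3% to 37.1% of the members were at least 2-fold lower and 25.7% to 34.3% at least 2-fold higher, against 17.1% to 23.0% and 46.9% to 55.5% of all genes. The medians moved with the treatment of zeros. With at least 0.5 FPKM in a library (28 members) they were -1.31 for all members, -8.01 for the H/ACA and -1.08 for the C/D snoRNAs. Above 0 in both they were -1.26 for all members, -1.59 for the H/ACA snoRNAs, -1.26 for the C/D snoRNAs and -2.06 for the scaRNAs. Without members at 0 in both they were -1.08, -5.33 (H/ACA) and -0.91 (C/D). Without the 6 members named otherwise now they were -1.59 (H/ACA) and -1.26 (C/D). The median of the scaRNAs changed sign when the IMP1 library was rescaled to the median gene (0.39), to the sum without the 50 highest genes (0.20) or to long nuclear genes (0.85), by construction, since SCARNA10 is the middle member. The log2 ratio of the summed FPKM (-1.93) became -1.13, -1.31 and -0.67 under these. The median difference of member and host (0.00) was -0.15 with the shortest host and -0.52 with 1 FPKM added.

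No paired analysis was possible because each antibody had 1 library, and leaving out a replicate was not run for the same reason. The coarser scale of the IgG library limits what a value of 0 says there. No 2 members share a name in the table, so averaging members by symbol changed nothing.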
